A study of Mus musculus with 6 samples.

Results

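Described here are 10 genes, of lytic cell death or of the deiminase family, in mouse bone marrow neutrophils given prostaglandin E2 (PGE2) or vehicle. They were chosen by symbol from the 45777 genes of the deposited count table: the peptidylarginine deiminases Padi2, Padi3 and Padi4, the gasdermins Gsdmd and Gsdme, the membrane rupture gene Ninj1, and the necroptosis genes Zbp1, Ripk1, Ripk3 and Mlkl. All 10 of the 10 were found, and all passed the filter on low counts that left 15947 genes to be tested. Both groups were neutrophils of wild type C57BL/6 mice, isolated from bone marrow on a Percoll density gradient, and there were 3 libraries in each. One group received 10 µM PGE2 and the other its solvent, DMSO, for 24 h. The labels give neither the purity of the gradient fraction nor the viability of the cells after the treatment.

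PGE2 is a lipid mediator made by cyclooxygenases, and neutrophils carry PGE2 receptors that raise cyclic AMP. PADI4 converts histone arginines to citrulline and so loosens chromatin before neutrophil extracellular traps are released. Gasdermins are pore-forming proteins that caspases or granule proteases cut, NINJ1 then tears the plasma membrane, and in necroptosis ZBP1 or death receptors engage RIPK1 and RIPK3, which activate the pore-forming protein MLKL.

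With PGE2, Padi4 and Gsdme transcripts fell to 31.7% and 39.8% of their vehicle levels. Zbp1 and Gsdmd also fell, by less. In the test on all 6 libraries without a block for the replicate number, 4 of the 10 genes were lower and none was called higher. Among all tested genes, 14.3% were lower and 10.1% higher. Ripk1, Ripk3, Ninj1, Padi2, Padi3 and Mlkl did not pass that test. With that block Ripk3 rose and Ripk1 fell (edgeR, adjusted p = 0.0206 and 0.0339). Levels are given as CPM, the counts scaled to library size after TMM scaling. Wherever genes are compared with each other, the deposited TPM is given, which accounts for transcript length but has no TMM scaling. A gene passed at a Benjamini-Hochberg adjusted p under 0.05 over all 15947 genes in edgeR's quasi-likelihood test, and the error given with a log2 fold change is its standard error. The series states biological replicates but not from which animals, so p-values measure the spread between these libraries. In bulk libraries, fewer cells of a type and less RNA per cell cannot be told apart.

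The promoters of the 2 genes that fell most are shown beside that of Padi2, which lies on the same chromosome as Padi4 and did not pass the test. The sequences are from RefSeq GRCm38.p6 and run 5′ to 3′ on the strand of the gene, with 250 bases before the annotated start and 50 after it. The Padi4 promoter was at chr4:140774154-140774453 on the minus strand, that of Gsdme at chr6:50261720-50262019 on the minus strand and that of Padi2 at chr4:140906110-140906409 on the plus strand. Capitals mark a match to one of the motifs given after the sequences.
Padi4 promoter: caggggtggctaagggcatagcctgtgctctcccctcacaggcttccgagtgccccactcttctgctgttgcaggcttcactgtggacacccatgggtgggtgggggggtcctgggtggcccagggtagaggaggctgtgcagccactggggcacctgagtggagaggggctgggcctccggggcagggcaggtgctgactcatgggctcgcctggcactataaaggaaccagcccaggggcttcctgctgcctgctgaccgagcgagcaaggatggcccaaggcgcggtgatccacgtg
Gsdme promoter: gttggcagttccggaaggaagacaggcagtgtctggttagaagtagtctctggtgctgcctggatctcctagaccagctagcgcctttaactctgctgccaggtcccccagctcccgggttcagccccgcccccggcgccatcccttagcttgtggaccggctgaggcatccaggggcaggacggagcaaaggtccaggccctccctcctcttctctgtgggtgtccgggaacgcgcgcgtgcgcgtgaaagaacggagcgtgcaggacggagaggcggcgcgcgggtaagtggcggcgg
Padi2 promoter: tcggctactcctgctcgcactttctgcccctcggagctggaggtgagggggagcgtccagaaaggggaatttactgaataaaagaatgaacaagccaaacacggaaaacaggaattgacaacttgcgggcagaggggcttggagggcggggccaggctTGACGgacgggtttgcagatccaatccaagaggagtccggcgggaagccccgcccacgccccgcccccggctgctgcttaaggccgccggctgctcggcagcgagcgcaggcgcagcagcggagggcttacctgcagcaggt

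RefSeq promoters were given for 8 of the 10 genes, all but Gsdmd and Zbp1, and 5 motifs were searched in them on both strands. The cyclic AMP response element TGACGTCA occurred in 1.79% of all 32851 promoters of this length, and its core TGACG, which it contains, in 20.8%. The interferon-stimulated response element GAAANNGAAA occurred in 3.44%, the C/EBP motif TTGCNNAA in 10.8% and the PU.1 motif GAGGAA in 28.3%. Padi2 held TGACG with its first base 92 bases before the start site. Neither the Padi4 nor the Gsdme window held any of the 5 motifs, and neither did those of Padi3, Ninj1, Mlkl or Ripk3. Ripk1 has 2 annotated promoters, the first without a match. The second one, at chr13:34002624-34002923 on the plus strand, held TGACG, 2 matches to the PU.1 motif on the minus strand (read as TTCCTC in the sequence) and the interferon-stimulated response element.
Ripk1 promoter: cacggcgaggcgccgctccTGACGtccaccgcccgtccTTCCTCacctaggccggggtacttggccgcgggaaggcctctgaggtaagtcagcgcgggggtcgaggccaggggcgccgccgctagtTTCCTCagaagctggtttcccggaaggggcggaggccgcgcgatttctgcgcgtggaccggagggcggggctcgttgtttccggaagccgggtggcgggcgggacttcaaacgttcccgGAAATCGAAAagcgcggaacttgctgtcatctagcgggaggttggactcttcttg
These matches describe letters in 1 window per promoter and say nothing of factor binding. The Gsdme window lies inside the gene span of the deposited files, which extends to 50263857, so that span begins upstream of it.

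The libraries held 42091346 to 56238941 counts each, with 18242 to 19511 genes detected, and the correlation of log2 CPM within a group was between 0.961 and 0.981. Of the 10 neutrophil markers, the most abundant were S100a9 and S100a8, and the markers summed to 233201 to 250507 TPM in PGE2 libraries and 235840 to 244609 TPM in vehicle libraries, with 6 of 10 lower with PGE2. Among all tested genes, 14.3% were lower and 10.1% higher, beside which this count and those of the other markers stand. Markers of other cells were present in every library. Erythroid markers, led by Hbb-bs and Hba-a1, summed to 43696 to 123504 TPM with PGE2 and 13420 to 54910 TPM with vehicle, and 1 of 10 was higher. B lineage markers, led by Cd79a and Cd79b, summed to 534 to 923 TPM with PGE2 and 389 to 528 TPM with vehicle, and 3 of 8 were higher. Eosinophil markers, led by Prg2 and Ear1, summed to 88.5 to 178 TPM with PGE2 and 248 to 474 TPM with vehicle, and 5 of 7 were lower. Monocyte and macrophage markers, led by Csf1r and Ccr2, summed to 300 to 420 TPM with PGE2 and 364 to 502 TPM with vehicle, and 2 of 10 were lower. The sums of T and NK cell markers (led by Trac and Cd3d), of mast cell and basophil markers (Prss34 and Mcpt8) and of platelet markers (Pf4 and Itga2b) overlapped between the groups. The neutrophil, erythroid, and monocyte and macrophage sums above overlapped as well. No marker was at 0 in every library, and the part of these cells in the results on the 10 genes was not tested.

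**Figure D1:**
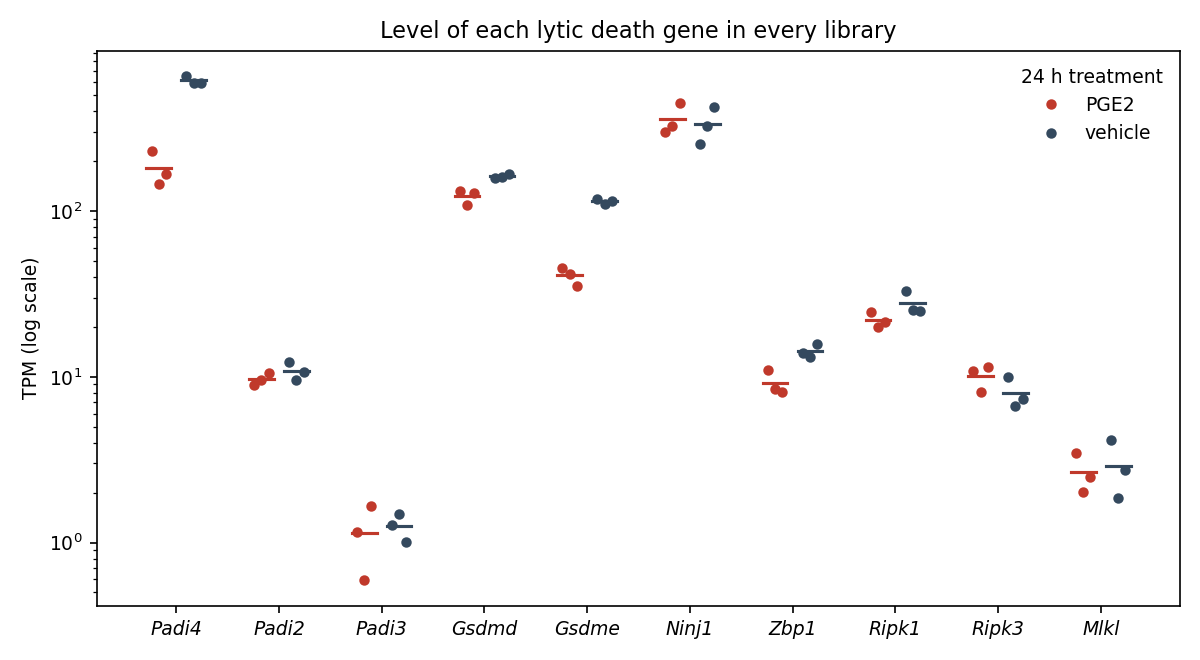
TPM of each gene (log axis) in every library, with PGE2 libraries on the left in red and vehicle libraries on the right in dark blue, and bars at the group means. Padi4, Gsdme, Gsdmd, Zbp1 and Ripk1 had all 3 PGE2 libraries below all 3 vehicle libraries, while Padi2, Padi3, Ninj1, Ripk3 and Mlkl overlapped on this scale. In CPM, 21.8% of all tested genes had all PGE2 libraries below all vehicle libraries, and the share in TPM was not computed.

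In order of length-adjusted level, Ninj1 was first in PGE2 libraries with 359 TPM, ahead of Padi4 with 182, Gsdmd with 123, Gsdme with 40.9 and Ripk1 with 22.0 TPM. Ripk3, Padi2 and Zbp1 followed with 10.1, 9.70 and 9.15 TPM and overlapped with each other, and Mlkl and Padi3 were lowest with 2.66 and 1.14 TPM. In vehicle libraries Padi4 was first with 614 TPM, ahead of Ninj1 with 334, Gsdmd with 163, Gsdme with 115 and Ripk1 with 27.8 TPM. Zbp1 with 14.3, Padi2 with 10.8 and Ripk3 with 8.03 TPM came next, of which Padi2 and Ripk3 overlapped, and Mlkl and Padi3 closed the order with 2.91 and 1.26 TPM. Padi4 and Ninj1 thus stood in opposite order in the 2 groups. Among all genes of the table, Padi4 ranked 607th by mean TPM in PGE2 libraries and 198th in vehicle libraries.

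The deiminases came first in the comparison. Padi4 (chr4:140745508-140774239, minus strand, mm10) had 354, 262 and 259 CPM in PGE2 libraries, against 912, 933 and 911 CPM in vehicle libraries. All 3 PGE2 libraries lay far below the vehicle libraries, and the first of them was the highest of its group. The means were 292 ± 54.0 CPM with PGE2 and 919 ± 12.4 CPM with vehicle (SD, n = 3 each), from 13719 to 47130 counts per library. The log2 fold change was -1.66 ± 0.13, with a 95% interval of -1.96 to -1.35 (edgeR, adjusted p = 0.000255). It was the 324th lowest of the 15947 log2 fold changes, among 602 genes that were at least 2-fold lower and passed. Every one of the 14 alternative fits kept the call, with log2 fold changes of -1.81 to -1.56 and adjusted p-values of 8.35e-31 to 0.00227.

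The other deiminases lie within the same stretch of chromosome 4. The 5 PAD genes run from 140727355 to 140952586 in the order Padi6, Padi4, Padi3, Padi1 and Padi2, and 11129 bases lie between Padi4 and Padi3. Padi2, which citrullinates histones and cytoskeletal proteins in many tissues, had 25.3, 32.0 and 30.0 CPM with PGE2, against 31.0, 27.4 and 29.5 CPM with vehicle. The groups overlapped. Its log2 fold change was -0.01 ± 0.11, with a 95% interval of -0.27 to 0.25 (edgeR, adjusted p = 0.966). Padi3, known for citrullinating hair follicle proteins, had 2.1, 1.24 and 2.98 CPM with PGE2, against 2.1, 2.74 and 1.82 CPM with vehicle. These levels came from 65 to 181 counts per library and overlapped, and the log2 fold change was -0.07 ± 0.35, with an interval of -0.87 to 0.73 (edgeR, adjusted p = 0.913). The signs for Padi2 and Padi3 changed between alternative fits, and neither gene passed in any of the 14. Padi2 and Padi3 overlap other annotated genes, which bears on how reads were assigned. Padi1 and Padi6 did not exceed 0.580 TPM in any library.

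Padi4 made up nearly all of the summed PAD family TPM. Its share was 95.8%, 93.2% and 93.1% in PGE2 libraries, against 97.9%, 98.1% and 98.0% in vehicle libraries. The TPM ratio of Padi4 to Padi2 was 26.0, 15.2 and 15.9 in PGE2 libraries, against 53.3, 62.0 and 56.0 in vehicle libraries. The mean log2 ratio was lower by 1.63 with PGE2 (exact two-sided permutation p = 0.1, the smallest that 3 against 3 allows; 0.133 adjusted over the 4 ratios compared).

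Gasdermins were next. Gsdme (chr6:50207401-50263857, minus strand), whose protein is cut by caspase-3 to form pores, had 69.3, 67.3 and 49.3 CPM in PGE2 libraries, against 153, 157 and 157 CPM in vehicle libraries. The groups were well apart, and the third PGE2 library was the lowest. The means were 62.0 ± 11.0 CPM with PGE2 and 156 ± 2.46 CPM with vehicle (SD, n = 3 each). The log2 fold change was -1.33 ± 0.13, with a 95% interval of -1.63 to -1.03 (edgeR, adjusted p = 0.000525). All 14 alternatives kept it, with log2 fold changes of -1.49 to -1.18.

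Gsdmd (chr15:75862144-75867408, plus strand), the pore-forming protein downstream of inflammasomes, was the more abundant gasdermin and differed less. It had 138, 134 and 134 CPM with PGE2, against 151, 172 and 174 CPM with vehicle. The groups did not overlap, and the nearest values were 138 with PGE2 and 151 with vehicle. Its log2 fold change was -0.30 ± 0.08, with a 95% interval of -0.49 to -0.10 (edgeR, adjusted p = 0.0353). This call held in 8 of 14 alternatives. It was lost with library totals as the only scaling, where the log2 fold change was -0.20 with an adjusted p of 0.129 in edgeR, and when any 1 library other than the first vehicle library was left out, with adjusted p-values up to 0.131.

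Gsdme contributed 25.7%, 27.6% and 21.6% of the summed Gsdmd and Gsdme TPM in PGE2 libraries, against 42.6%, 40.8% and 40.8% in vehicle libraries. The groups did not overlap in this share. The log2 TPM ratio of Gsdme to Gsdmd was lower by 1.09 with PGE2 (exact two-sided permutation p = 0.1, the smallest possible, and 0.133 adjusted). Of the other gasdermin and ninjurin genes on the list, Gsdma, Gsdma2, Gsdma3, Gsdmc, Gsdmc2, Gsdmc3 and Ninj2 had 0 counts in every library, Pjvk had at most 20, and Gsdmc4 had at most 32 and did not pass the test. With Padi1 and Padi6, Gsdmc4 made 3 tested genes of this group, of which edgeR and DESeq2 called 0 and 0 had an unadjusted p under 0.05 in edgeR.

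Ninj1 (chr13:49187529-49196251, plus strand), which ruptures the plasma membrane late in lytic death, had 203, 258 and 301 CPM with PGE2, against 156, 226 and 282 CPM with vehicle. The groups overlapped widely, and in each group the library numbered 3 was the highest. Its log2 fold change was 0.20 ± 0.22, with a 95% interval of -0.30 to 0.70 (edgeR, adjusted p = 0.560), and no alternative brought it past the threshold. With the replicate number as a block it was 0.22 with an adjusted p of 0.0610 in edgeR. The TPM ratio of Padi4 to Ninj1 was 0.767, 0.446 and 0.375 in PGE2 libraries, against 2.56, 1.82 and 1.41 in vehicle libraries. These groups did not overlap, with a log2 difference of -1.89 (exact two-sided permutation p = 0.1, the smallest possible, and 0.133 adjusted).

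Of the necroptosis genes, Zbp1 fell. Zbp1 (chr2:173206612-173218959, minus strand), an interferon-inducible sensor of Z-form nucleic acids, had 8.88, 9.14 and 6.97 CPM with PGE2, against 11.6, 12.7 and 15.2 CPM with vehicle. The groups did not overlap, and the third library of each group was the most extreme. The log2 fold change was -0.66 ± 0.16, with a 95% interval of -1.03 to -0.29 (edgeR, adjusted p = 0.0198). In edgeR the adjusted p was 0.0633 without the third PGE2 library, 0.0525 without the second vehicle library and 0.0720 without the third vehicle library, and the call held in the other 11 alternatives.

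Ripk1 (chr13:34002225-34035170, plus strand), the kinase at the branch between survival and death signals, had 68.4, 65.7 and 59.6 CPM with PGE2, against 83.8, 73.3 and 69.8 CPM with vehicle. The groups did not overlap, but the third vehicle library was only slightly above the first PGE2 library. The log2 fold change was -0.23 ± 0.10 (edgeR, adjusted p = 0.137). With the replicate number as a block it was -0.23 with an adjusted p of 0.0339 in edgeR. That was the 1 call in 14 alternatives, where adjusted p-values reached 0.388 in edgeR with library totals alone. Ripk1 overlaps Serpinb6a on the other strand, and the sources used here do not say whether strand was used in counting.

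Ripk3 (chr14:55784995-55788857, minus strand), the kinase that phosphorylates MLKL, had 12.1, 10.4 and 12.6 CPM with PGE2, against 10.1, 7.63 and 8.08 CPM with vehicle. Every PGE2 library was above every vehicle library in CPM, but in TPM the groups overlapped. Its log2 fold change was 0.44 ± 0.15, with a 95% interval of 0.09 to 0.79 (edgeR, adjusted p = 0.0682). It passed with the replicate number as a block, at 0.45 with an adjusted p of 0.0206 in edgeR. It also passed without the first vehicle library, at 0.58 with an adjusted p of 0.0403. These were the 2 calls in 14 alternatives, where adjusted p-values reached 0.292 with limma on log2(TPM + 1). Ripk3 overlaps Gm32092 on the other strand.

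Mlkl (chr8:111311255-111338479, minus strand), the executioner of necroptosis, was low in every library. It had 4.61, 3.02 and 3.18 CPM with PGE2, against 5.15, 2.99 and 3.60 CPM with vehicle, from 120 to 236 counts. The groups overlapped, and the log2 fold change was -0.12 ± 0.27, with a 95% interval of -0.73 to 0.49 (edgeR, adjusted p = 0.788). The TPM ratio of Ripk3 to Mlkl was 3.12, 4.0 and 4.61 with PGE2, against 2.43, 3.59 and 2.69 with vehicle, which overlapped (log2 difference 0.43, exact two-sided permutation p = 0.2, also after adjustment).

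**Figure D2:**
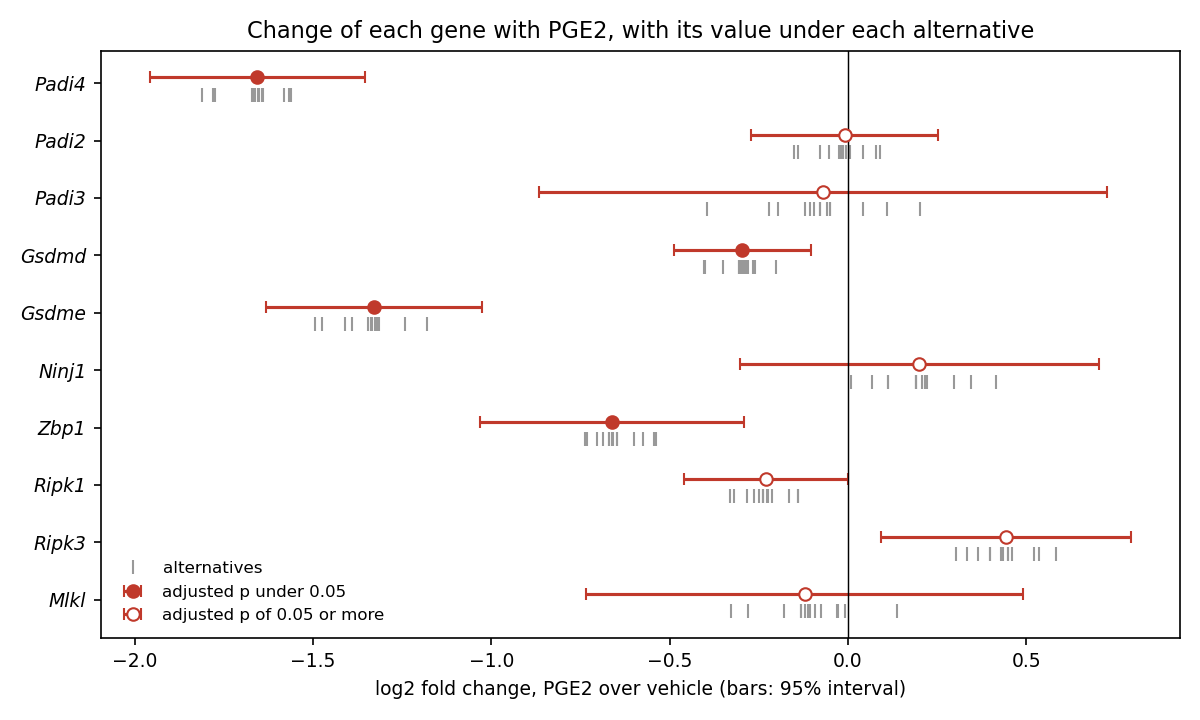
Log2 fold change of each gene with PGE2 over vehicle and its 95% interval from edgeR, filled where the adjusted p was under 0.05, with grey ticks for each alternative fit. The ticks of Padi4 stayed between -1.81 and -1.56 and those of Gsdme between -1.49 and -1.18, while those of Padi2, Padi3 and Mlkl lay on both sides of 0.

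Over the 10 genes, 4 were lower with PGE2, in a comparison where 14.3% of all tested genes were lower. The 10 genes and the lists below were chosen with earlier results of these data known. Such shares are a description and not a test. Of the 10, 0 were higher in edgeR, where 10.1% of all tested genes were higher. In edgeR 1 of the 10, Ripk3, had an unadjusted p under 0.05 and a higher value, and DESeq2 and limma on TPM called 0 higher. In 5 of the 10, all PGE2 libraries were below all vehicle libraries in CPM, which held for 21.8% of tested genes. In 1, Ripk3, all PGE2 libraries were above, which held for 20.5%. The median log2 fold change was -0.17 over the 10 genes and 0.04 over all tested genes. With library totals alone, 3 of the 10 were lower. The count was 3 without the first or the second PGE2 library, and 2 without the third PGE2 library, the second vehicle library or the third vehicle library. The 2 genes called in every alternative were Padi4 and Gsdme.

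With the replicate number as a block, 5 of the 10 were lower and 1 was higher, against 18.9% lower and 16.6% higher among all tested genes. That block moved the genes higher in all from 1618 to 2648 and those lower from 2278 to 3009. Of all calls, 41.5% were higher with TMM scaling, 55.5% with library totals alone, and 30.0% or 30.1% with limma on TPM with either pseudocount. The median over all tested genes was 0.13 with library totals alone and -0.06 or -0.08 with TPM.

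Within the same-numbered pairs of libraries, Padi4 had log2 CPM ratios of -1.37, -1.83 and -1.82, and Gsdme of -1.14, -1.22 and -1.67. Both were lower with PGE2 in 3 of 3 pairs. Zbp1 had ratios of -0.38, -0.47 and -1.13, Gsdmd of -0.14, -0.37 and -0.38, and Ripk1 of -0.29, -0.16 and -0.23. These were also below 0 in 3 of 3 pairs. Ripk3 had 0.26, 0.45 and 0.64 and Ninj1 had 0.38, 0.20 and 0.09, above 0 in 3 of 3. Padi2, Padi3 and Mlkl had both signs among their pairs. Where the groups do not overlap in CPM, the 3 signs are the same by construction. The share of all tested genes with the same sign in 3 of 3 pairs was not computed, so these signs are a description.

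**Figure D3:**
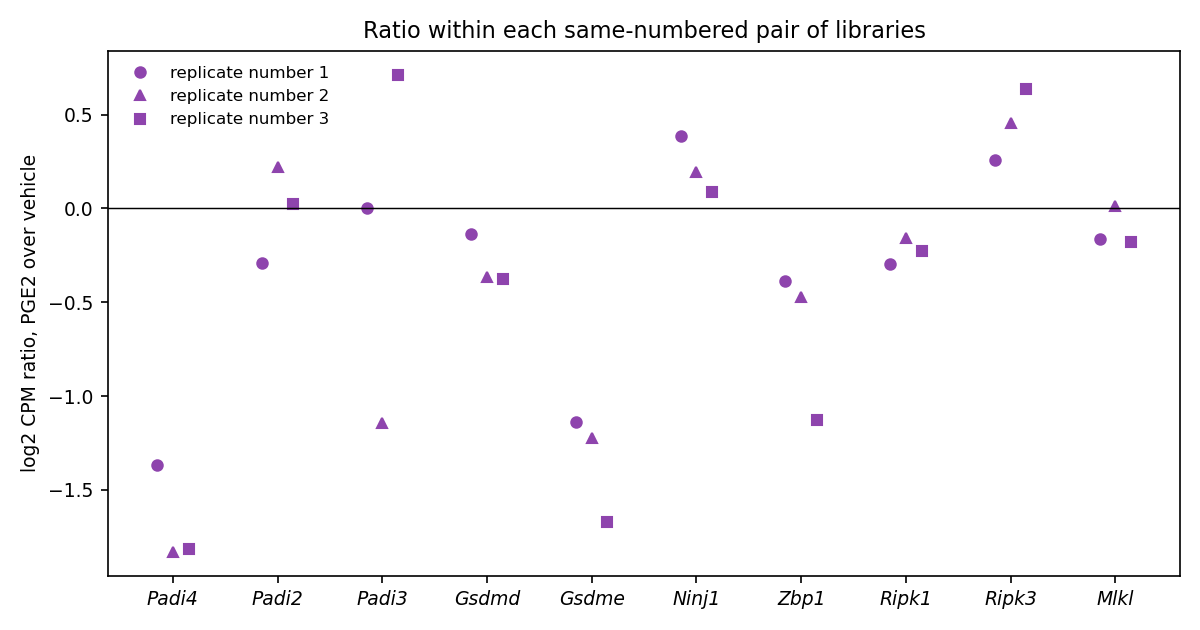
Log2 CPM ratio of PGE2 over vehicle within each pair of libraries that share a replicate number, by gene, with a marker shape for each number. Padi4 and Gsdme were lowest, at -1.83 to -1.37 and -1.67 to -1.14, and the Padi3 ratios spread from -1.14 to 0.71.

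Over the 6 libraries, log2 CPM of Gsdme correlated with that of Padi4 at r = 0.98, of Gsdmd at 0.91, of Zbp1 at 0.90, of Ripk1 at 0.79 and of Ripk3 at -0.81. The values were 0.28 for Mlkl, 0.18 for Padi3, -0.09 for Padi2 and -0.43 for Ninj1. These are descriptions over 6 libraries that fall into 2 treatment groups. Among 7805 genes with a mean of at least 10 CPM, those most like Padi4 by this measure were Inpp1, Pi16 and Grn, at r = 0.999 each. Their log2 fold changes were -0.66 ± 0.08 for Inpp1, an inositol phosphatase, -1.72 ± 0.15 for Pi16 and -0.71 ± 0.09 for Grn, which encodes progranulin.

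Partners of PADI4 in trap formation were next. Of 18 genes, 11 were lower, 2 were higher and 5 did not pass, beside 14.3% lower and 10.1% higher among all tested genes, with a median log2 fold change of -0.49 against 0.04 for all tested genes. The number lower was 8 with library totals alone and 8 to 10 when 1 library was left out. Lmnb1, the nuclear lamina protein that must break before chromatin leaves the nucleus, went the other way. It had 748, 806 and 697 CPM with PGE2, against 184, 175 and 167 CPM with vehicle, with a log2 fold change of 2.1 ± 0.09 (edgeR, adjusted p = 6.69e-05). Its groups were far apart, and it was higher in all 3 PGE2 libraries. Mpo, the granule peroxidase, averaged 135 CPM with PGE2 and 268 CPM with vehicle, a log2 fold change of -0.99 ± 0.12. The protein kinase C genes Prkcb and Prkcd, whose products act upstream of the oxidative burst, averaged 220 and 577 CPM with PGE2 and 423 and 858 CPM with vehicle. Cybb, Elane and Hmgb1 are named here after their values were seen. Cybb, the catalytic subunit of the NADPH oxidase, had a log2 fold change of -1.28 ± 0.25, Elane, neutrophil elastase, of -0.83 ± 0.16, and Hmgb1, a chromatin protein released from dying cells, of 0.44 ± 0.08, all past the edgeR threshold. Hmgb1 did not pass with limma on TPM, at adjusted p-values of 0.0952 and 0.0999.

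Genes that act upstream of gasdermins went both ways. Of 16 inflammasome and caspase genes, 6 were lower, 2 were higher and 8 did not pass, beside 14.3% lower and 10.1% higher among all tested genes, with a median log2 fold change of -0.10. Aim2, a sensor of cytosolic DNA, averaged 71.8 CPM with PGE2 and 145 CPM with vehicle, a log2 fold change of -1.01 ± 0.11. Naip2, a receptor for bacterial secretion system proteins, and Nek7, a kinase needed by NLRP3, had log2 fold changes of -0.57 ± 0.11 and -0.46 ± 0.08. Mefv, which encodes pyrin, averaged 108 CPM with PGE2 and 52.5 CPM with vehicle, a log2 fold change of 1.04 ± 0.11. Named after their values were seen, the adaptor Pycard had a log2 fold change of 0.36 ± 0.10, and the sensor Nlrp3 and the Gsdmd-cutting caspases Casp1 and Casp4 had 0.24 ± 0.13, -0.11 ± 0.12 and -0.08 ± 0.16. Pycard passed in 6 of 14 alternatives. Nlrp3, Casp1 and Casp4 did not pass in the fit without a block, and Nlrp3 did with it, at an adjusted p of 0.0347 in edgeR.

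Most regulators of necroptosis did not pass the test. Of 26 genes, 1 of them also among the caspase genes, 4 were lower, 2 were higher and 20 did not pass, beside the same 14.3% and 10.1% of all tested genes, with a median of 0.03. Birc2, a ubiquitin ligase that restrains RIPK1, had a log2 fold change of 0.48 ± 0.08. Tnfrsf1a, the TNF receptor that recruits RIPK1, had -0.41 ± 0.10, Rnf31, of the linear ubiquitin ligase complex, -0.46 ± 0.10, and Adar, the RNA-editing enzyme that limits ZBP1 ligands, -0.51 ± 0.09. The other gene called higher was Ppm1b, named after its value was seen, with 0.30 ± 0.08. Ppm1b passed in 7 of 14 alternatives, and its call was lost when any 1 library other than the first PGE2 library was left out, at adjusted p-values up to 0.0839 in edgeR. Birc2 and Ppm1b did not pass with limma on TPM, at adjusted p-values up to 0.0533 and 0.270. With the replicate block, 4 of the 26 were higher, beside 16.6% of all tested genes, and with limma on TPM 0 were. The Tnfrsf1a call was lost without the third PGE2, the second vehicle or the third vehicle library, at adjusted p-values up to 0.0888 in edgeR.

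Genes of the ESCRT machinery, which removes wounded membrane, had a median log2 fold change of 0.17 over 17 tested genes, with 2 higher and 15 not past the threshold, beside 10.1% higher among all tested genes. Ist1 had 0.57 ± 0.12 and Pdcd6, a calcium sensor that recruits the machinery, 0.38 ± 0.10. Pdcd6 passed in 8 of 14 alternatives. Its call was lost with limma on TPM and, in edgeR, without the second PGE2, the third PGE2, the first vehicle or the second vehicle library, at adjusted p-values up to 0.0810. With the replicate block 5 of the 17 were higher, beside 16.6% of all tested genes, and without the second PGE2 library 1 was. Of 7 tested genes on a list of nucleases, 2 were lower, 1 was higher and 4 did not pass, beside 14.3% lower and 10.1% higher among all tested genes. Samhd1, which is on that list but degrades deoxynucleotides, averaged 758 CPM with PGE2 and 1306 CPM with vehicle, and Dnase1l1 had a log2 fold change of -0.51 ± 0.12. The Dnase1l1 call was lost without the second PGE2, the third PGE2 or the second vehicle library, at adjusted p-values of 0.0633, 0.0673 and 0.0731 in edgeR. Dnase1l3, a secreted enzyme that digests chromatin and traps, averaged 2.48 CPM with PGE2 and 1.17 CPM with vehicle, with a log2 fold change of 1.08 ± 0.32 (edgeR, adjusted p = 0.0406), and it passed in 6 of 12 alternatives. It was lost without a filter and when any 1 library other than the first PGE2 library was left out, at adjusted p-values up to 0.124 in edgeR.

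Zbp1 is known to be induced by interferon. Of 22 other interferon-stimulated genes, 16 were lower and 6 did not pass the threshold, beside 14.3% lower among all tested genes, and the median log2 fold change was -1.0. Ifit3 had -3.33 ± 0.29, Cmpk2 -2.05 ± 0.13 and Oasl2 -1.91 ± 0.11. The log2 fold change of Zbp1, -0.66, lay between that median and 0.

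**Figure D4:**
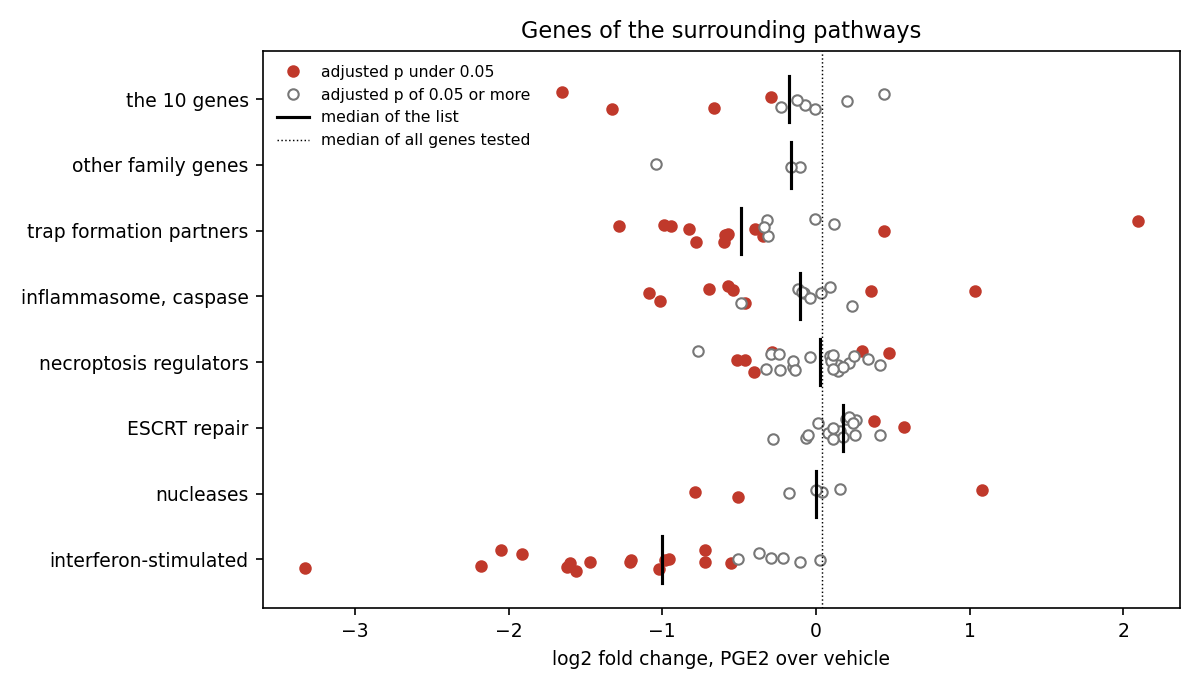
Log2 fold change of each tested gene in the 10 genes and 7 surrounding lists, filled where the adjusted p was under 0.05 in edgeR. A black bar marks each list's median and a dotted line the median of all tested genes (0.04). The interferon-stimulated genes had the lowest median, -1.0, and the trap formation partners had both many genes below 0 and Lmnb1 at 2.1.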

How the data were processed

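RNA-seq was made from 6 libraries of mouse bone marrow neutrophils, 3 with 10 µM PGE2 and 3 with DMSO for 24 h, grouped by sample title. Per the labels' protocols, RNA was taken with TRIzol and libraries made with a TruSeq mRNA kit, named both as standard and as stranded. The genome build was mm10 and the tools named were RSEM, DESeq2, STAR, Bowtie2 and StringTie 2.1.3b, per the submitters' processing notes; the sources used here give neither their order nor whether counting used strand. The authors deposited estimated counts per gene as whole numbers, in a table whose name calls them normalized; library totals differed, so they were treated as unnormalised. TPM was deposited by the authors in the series table and, per the file headers, in tables per library. The series table also held 18 columns of other libraries, not used.

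Estimated counts were rounded. A gene was tested where 3 or more libraries had 10 or more counts, with edgeR 4.0.16 (quasi-likelihood, TMM scaling, two-sided) in R 4.3.3, with Benjamini-Hochberg adjustment at 0.05; the biological coefficient of variation was 22.4%. CPM values were TMM scaled. The script was tested on simulated data. DESeq2 1.42.0 size factors and Wald test, library totals, no filter, a filter of 50 counts, limma 3.58.1 on log2(TPM + 1) and log2(TPM + 0.1) for genes with 1 TPM or more in 3 or more libraries, a replicate block and leaving out each library were alternatives. TPM ratios between genes were compared with exact permutation tests.

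The titles number the libraries 1 to 3 in both groups. Deviations from the group means correlated at 0.26, 0.17 and 0.19 in same-numbered pairs and at most 0.002 in the others. The labels state neither a pairing nor what the number marks. The main test therefore had no block, and the replicate number was a block in an alternative fit, whose calls differed as given above.

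Named genes were all 10 members and, from each pathway list, the 4 or fewer called genes of lowest adjusted p, plus at most 2 called in the opposite direction. The 2 most abundant markers of each cell type and the 3 genes best correlated with Padi4 were added. A gene that this rule also picks is not reported here. The members and lists were chosen with earlier results of these data known.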

Additional observations from a re-analysis of the deposited data

How the results depend on the processing

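Under 14 alternatives no result changed direction while passing the threshold in either fit, and 4 members were lower with DESeq2, its size factors, either other filter and TPM. With the replicate block, 2648 genes and 1 member were higher, as were 4 necroptosis regulators and 5 ESCRT genes, and 1 ESCRT gene was lower. The block changed the calls of Ripk1, Ripk3 and Nlrp3 and of no other gene named. With limma on TPM and a pseudocount of 0.1 or 1, 953 or 967 genes were higher, and, with either, 1 trap formation partner, 1 inflammasome gene, 0 necroptosis regulators, 1 ESCRT gene and 0 nucleases were higher; Dnase1l3, the nuclease otherwise called higher, was below the TPM filter and was not tested there. With library totals alone 5 ESCRT genes were higher, and with a filter of 50 counts 4. Without a filter 1 inflammasome gene and 0 nucleases were higher. DESeq2 called 1 ESCRT gene lower.

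Leaving out each library in turn gave 1005 to 1541 genes higher, 0 to 1 members higher and 2 to 4 members lower. It gave 1 to 2 inflammasome genes, 1 to 3 necroptosis regulators, 1 to 4 ESCRT genes and 0 to 1 nucleases higher. It gave 2 to 4 necroptosis regulators, 0 to 1 ESCRT genes and 1 to 2 genes of the nuclease list, which includes Samhd1, lower. The cause of these changes was not tested, apart from the smaller number of libraries or genes that some alternatives use by construction. Among single genes, 536 values stayed on their side of the threshold, 46 lost their call and 4 gained one. The 28 values of the TPM ratios kept their direction. Depth limits Padi3 and Mlkl most, with 65 to 181 and 120 to 236 counts per library.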
